A study of Homo sapiens with 21 samples.

Results

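A set of 10 genes that ERK signalling switches on, most of which dampen it, was followed across every condition of an RNA sequencing experiment in Hs578T cells, an established human triple-negative breast cancer line. They were the phosphatases DUSP4, DUSP5, DUSP6 and DUSP7, the membrane-associated inhibitors SPRY2, SPRY4, SPRED1 and SPRED2, and the ETS transcription factors ETV4 and ETV5. These 10 genes were picked by name out of the 28395 gene rows of the count table, and all 10 had enough counts to be tested. They and the lists of related genes below were chosen with earlier results of these data known. Their counts beside the shares of all genes are therefore description only.

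Cells were treated for 8 h in 7 groups of 3 replicates, giving 21 libraries, and all groups were unmodified Hs578T cells. The control group received DMSO, the solvent. THZ531, a covalent inhibitor of the transcriptional kinases CDK12 and CDK13, was given alone at 0.1 µM or at 1 µM. Lapatinib, an inhibitor of the EGFR and HER2 tyrosine kinases, was given at 3.16 µM, and nilotinib, an inhibitor of the BCR-ABL kinase, at 1 µM, each alone or together with 0.1 µM THZ531. The study asked whether kinase inhibitors sensitize such cells to CDK12/13 inhibition. All libraries came from this single line, so nothing below extends to other cells.

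ERK is the last kinase of the cascade that runs from receptor tyrosine kinases through RAS, RAF and MEK. Active ERK induces the transcription of its own inhibitors, which makes this gene group a common transcript readout of the pathway. DUSP4 and DUSP5 remove phosphate from kinases of the MAPK family in the nucleus, DUSP6 and DUSP7 do so in the cytoplasm, Sprouty proteins act between the receptor and RAF, and SPRED proteins bring the RAS inhibitor neurofibromin to the membrane. ETV4 and ETV5 belong to the PEA3 subfamily of ETS factors, and both are known targets of the repressor CIC, which ERK inactivates. CDK12 and CDK13 phosphorylate the C-terminal domain of RNA polymerase II during elongation.

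Promoters from RefSeq (GRCh38.p14) matched 6 of the 10 genes. ETV4, ETV5 and DUSP5 were among those without a listed promoter, so no motif was sought in them. The pair of Sprouty promoters is shown because these relatives responded differently to the combinations. Each sequence is the 250 bases before a transcription start listed by RefSeq, read 5′ to 3′ on the minus strand of the genome, at chr13:80341127-80341376 for SPRY2 and chr5:142324248-142324497 for SPRY4. The SPRY2 stretch ends at the outer bound of the gene, whereas the SPRY4 stretch lies inside the gene bounds given below, before an internal start. Capitals mark CCGGAA, one sequence that ETS factors bind. Shorter matches such as GGAA, which the SPRY4 stretch also holds, were not sought or marked.
SPRY2: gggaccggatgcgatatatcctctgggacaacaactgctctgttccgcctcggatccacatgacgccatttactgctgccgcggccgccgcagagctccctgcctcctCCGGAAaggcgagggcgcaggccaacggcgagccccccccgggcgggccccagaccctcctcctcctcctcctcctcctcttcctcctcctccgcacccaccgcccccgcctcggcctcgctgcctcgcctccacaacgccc
SPRY4: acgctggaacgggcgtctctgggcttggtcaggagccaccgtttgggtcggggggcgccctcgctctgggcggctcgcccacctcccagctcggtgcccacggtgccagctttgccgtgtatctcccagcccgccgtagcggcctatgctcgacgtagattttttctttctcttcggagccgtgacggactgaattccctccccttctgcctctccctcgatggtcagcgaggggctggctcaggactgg
The SPRY2 stretch was 70.4% GC and the SPRY4 stretch 65.6% GC. Motifs were sought on both strands from 250 bases before to 50 bases after each start. The sequence CCGGAA was present in 1 of the 9 promoters listed for the 6 genes, that of SPRY2 printed above, and in 17.2% of all 35116 promoters. The CIC octamers TGAATGAA and TGAATGGA (TTCATTCA and TCCATTCA on the other strand) were in none of the 9 promoters and in 1.65% and 1.03% of all promoters. The cyclic AMP response element TGACGTCA, which reads the same on both strands, was in none of the 9 and in 1.85% of all. The motif searches did not overlap each other in the printed stretches, and a match or its absence in such a window is a description of the letters only.

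The genes lie on 9 chromosomes (GRCh38; GENCODE 44 for exons, RefSeq for the gene bounds). DUSP6 (Entrez gene 1848, chr12:89347235-89352501) and SPRY2 (10253, chr13:80335976-80341126) were the shortest, with spans of 5.3 and 5.2 kb. DUSP7 (1849, chr3:52048919-52056571), DUSP5 (1847, chr10:110497907-110511533), SPRY4 (81848, chr5:142310430-142325021), DUSP4 (1846, chr8:29333064-29350684) and ETV4 (2118, chr17:43527846-43546340) spanned 7.7 to 18.5 kb. ETV5 (2119, chr3:186046314-186109089), SPRED1 (161742, chr15:38252836-38357249) and SPRED2 (200734, chr2:65307175-65432599) were the long genes, at 62.8, 104.4 and 125.4 kb. The libraries did not keep strand, and in the GENCODE annotation 1105 of the 3859 exon bases of DUSP6 lie under an lncRNA on the opposite strand. Reads of the 2 transcripts could not be told apart there. For ETV4, 68 of 3515 exon bases lie under DHX8 on the opposite strand, and for ETV5, 164 of 5773 lie under DGKG on the same strand.

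Each library held 97612207 to 112229052 counts, the replicates of a group correlated at 0.990 to 0.994 across genes, and the 13 mitochondrially encoded mRNAs took 1.14% to 1.78% of the counts. The unit of level is CPM, the count divided by the TMM-adjusted library size and brought to a common base. Differences are log2 fold changes (log2 FC) with standard errors, fitted by the quasi-likelihood method of edgeR, whose p-values were adjusted by Benjamini-Hochberg over 16036 genes. A gene is called changed at an adjusted p under 0.05. The line's defining markers fitted its label: VIM averaged 6845 CPM in DMSO, the 2 tested epithelial genes CDH1 and ESRP1 summed to at most 1.71 CPM in any library, PGR reached at most 4 counts and EPCAM at most 10. The HER2 gene ERBB2 was present at 37.5 CPM, and the 2 tested receptor genes ESR1 and ERBB2 summed to 34.3 to 42.4 CPM in DMSO. Of the leukocyte list, CD3E had at most 2 counts, while PTPRC and CD68 both rose in the 3 groups given a combination or 1 µM THZ531, from a summed 104 to 124 CPM in DMSO to 130 to 180 CPM under TMM scaling, while on the mitochondrial scale described below 0, 0 and 1 of them did. The part of these markers in the results was not tested.

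In DMSO, ETV5 was the most abundant transcript of the group. Per kilobase of exon, its DMSO level was 20.8 ± 0.79 CPM per kb (SD, n = 3). SPRED2 followed at 10.8 ± 0.50, SPRED1 at 9.63 ± 0.92, DUSP4 at 9.24 ± 0.15, DUSP6 at 8.58 ± 0.19 and DUSP7 at 8.0 ± 1.1 CPM per kb. SPRY2, SPRY4, DUSP5 and ETV4 were the least abundant, between 5.17 ± 0.35 and 4.01 ± 0.15 CPM per kb. The factor ETV4 was thus present at a far lower level per length than its close relative ETV5.

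ETV5 showed the largest falls of the 10 genes in the combinations and with 1 µM THZ531. It stood at 115, 124 and 121 CPM in the DMSO libraries and at 35.4, 36.4 and 35.6 CPM in lapatinib + THZ531. In nilotinib + THZ531 it was at 41.6, 40.6 and 43.4 CPM, and in 1 µM THZ531 at 44.5, 40.6 and 43.5 CPM. All 9 of these libraries lay far below every library of the other 4 groups, whose lowest ETV5 level was 112 CPM. ETV5 fell by 1.75 ± 0.054 (log2 FC ± SE) with lapatinib + THZ531, by 1.52 ± 0.054 with nilotinib + THZ531 and by 1.49 ± 0.054 with 1 µM THZ531 (edgeR adjusted p = 1.27e-15, 6.57e-15 and 2.17e-14). At 0.1 µM THZ531 alone it was at 113, 114 and 112 CPM, a log2 FC of -0.09 that did not pass the test (adjusted p = 0.403).

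ETV4, the other PEA3 factor, moved in the same direction over a narrower range. It was at 13.6, 14.1 and 14.6 CPM in DMSO, 10.3, 10.1 and 11 CPM in lapatinib + THZ531, 12.1, 11.8 and 12.8 CPM in nilotinib + THZ531 and 9.73, 11.2 and 11 CPM in 1 µM THZ531. None of these treated libraries overlapped the DMSO range. ETV4 fell by 0.43 ± 0.075 with lapatinib + THZ531 and by 0.41 ± 0.074 with 1 µM THZ531 on the log2 scale (adjusted p = 3.55e-05 and 6.92e-05). The log2 FC with nilotinib + THZ531 was -0.20 ± 0.074 (adjusted p = 0.0213), and this call was lost without DMSO replicate 3 (0.0818), without replicate 1 or 2 of that combination (0.0554 and 0.0782) and under DESeq2 (0.0701). It was also lost under RLE scaling (0.0759), with no filter (0.0542) and under upper-quartile scaling, where the log2 FC was -0.06 (0.499). ETV4 was the only one of the 10 genes called with a kinase inhibitor alone: nilotinib libraries held 16.8, 19.2 and 17.9 CPM, all above the DMSO libraries.

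The Sprouty genes did not respond alike. SPRY4 was at 27.9, 34.7 and 28.1 CPM in DMSO, 11.3, 18.8 and 13.3 CPM in lapatinib + THZ531, 14.6, 20.3 and 18.4 CPM in nilotinib + THZ531 and 15.0, 9.74 and 12.3 CPM in 1 µM THZ531. The highest treated library remained clear of the lowest DMSO library. SPRY4 fell by 1.06 ± 0.17, 0.77 ± 0.17 and 1.30 ± 0.17 on the log2 scale in these groups (adjusted p = 1.08e-05, 0.00038 and 1.09e-06). SPRY2, by contrast, was at 17.1, 15.3 and 17.4 CPM in DMSO and at 18.7, 21 and 17.8 CPM in lapatinib + THZ531, so that all 3 libraries of this combination lay above DMSO. Its log2 FC was 0.21 ± 0.10 there (adjusted p = 0.0698) and 0.07 ± 0.10 with nilotinib + THZ531 (adjusted p = 0.537). The first was called without 1 µM THZ531 replicate 1 or 2 (adjusted p = 0.0351 and 0.0316). Scaling to mitochondrial mRNAs turned both SPRY2 values negative, to -0.48 and -0.56. With 1 µM THZ531 SPRY2 libraries held 15.8, 11.2 and 13.2 CPM, and it fell by 0.31 ± 0.10 (adjusted p = 0.00975). That call was lost without 1 µM replicate 2 (adjusted p = 0.0740).

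Under TMM scaling the combinations changed SPRED1 but gave no call for SPRED2. SPRED1 held 82.5, 68.6 and 72.9 CPM in DMSO, 34.6, 44.9 and 39.1 CPM in lapatinib + THZ531, 41.9, 50.0 and 55.1 CPM in nilotinib + THZ531 and 38.3, 23.1 and 36.5 CPM in 1 µM THZ531. These 9 libraries were all below DMSO, and SPRED1 fell by 0.92 ± 0.14, 0.61 ± 0.14 and 1.19 ± 0.15 on the log2 scale (adjusted p = 1.07e-05, 0.000858 and 4.56e-07). SPRED2 held 58.1, 62.5 and 57.4 CPM in DMSO, 43.6, 62.9 and 54.6 CPM in lapatinib + THZ531 and 53.4, 68.7 and 74.2 CPM in nilotinib + THZ531. Both combinations overlapped DMSO, with log2 FC of -0.14 (95% CI -0.50 to 0.21) and 0.14 (95% CI -0.21 to 0.50). With 1 µM THZ531 SPRED2 libraries held 36.5, 19.9 and 36.8 CPM, all below DMSO, and the gene fell by 0.93 ± 0.17 (adjusted p = 7.02e-05). With lapatinib + THZ531 SPRED2 was called lower under scaling to library size (-0.47, adjusted p = 0.0213) and under mitochondrial scaling (-0.83, adjusted p = 6.86e-05). Under mitochondrial scaling its nilotinib + THZ531 value was -0.49 (adjusted p = 0.0137), and without the 3 libraries described further on it was 0.27 (adjusted p = 0.00419).

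Among the nuclear phosphatases, DUSP4 fell in the 3 groups and DUSP5 moved both ways. DUSP4 was at 66.6, 68.5 and 66.5 CPM in DMSO, 38.1, 53.6 and 43.3 CPM in lapatinib + THZ531, 46.7, 54.0 and 54.0 CPM in nilotinib + THZ531 and 32.8, 18.3 and 32.4 CPM in 1 µM THZ531. All 9 treated libraries were below DMSO, and those with 1 µM THZ531 were also below both combinations. DUSP4 fell by 0.58 ± 0.15 with lapatinib + THZ531 and by 1.27 ± 0.15 with 1 µM THZ531 (adjusted p = 0.00197 and 3.91e-07). Its fall of 0.38 ± 0.15 with nilotinib + THZ531 (adjusted p = 0.0292) was lost without any 1 of the DMSO replicates 1, 2 and 3 (adjusted p = 0.0541, 0.0648 and 0.0535), without replicate 1 of the combination (0.107) and under DESeq2 (0.0537). RLE and upper-quartile scaling did not call this fall either (0.0560 and 0.123). DUSP5 held 10.5, 11.2 and 11.3 CPM in DMSO and 14.7, 17.5 and 16.0 CPM in nilotinib + THZ531, where it rose by 0.55 ± 0.13 under TMM scaling (adjusted p = 0.000871), against 0.25 under scaling to library size and -0.07 under mitochondrial scaling. In lapatinib + THZ531 DUSP5 spread from 10.6 to 12.1 and 15.5 CPM, a log2 FC of 0.21 ± 0.13 (adjusted p = 0.146) that was called without replicate 1 of that combination (0.33, adjusted p = 0.0332) and was -0.47 under mitochondrial scaling. In 1 µM THZ531 it was at 9.39, 6.73 and 7.96 CPM, below every DMSO library, a fall of 0.45 ± 0.13 (adjusted p = 0.0046).

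Under TMM scaling the cytoplasmic phosphatase DUSP6 was the only gene of the 10 not called lower with 1 µM THZ531. Its DMSO libraries held 33.7, 33.4 and 32.3 CPM and its 1 µM THZ531 libraries 35.3, 27.3 and 30.9 CPM, on either side of DMSO, with a log2 FC of -0.09 (95% CI -0.28 to 0.10; adjusted p = 0.406). It was called lower there under scaling to library size (-0.35, adjusted p = 0.0031) and under mitochondrial scaling (-0.64, adjusted p = 0.00039). With lapatinib + THZ531 it was at 38.6, 45.3 and 37.4 CPM, above all DMSO libraries. This was a log2 FC of 0.29 ± 0.091 under TMM scaling (adjusted p = 0.00799), -0.04 under scaling to library size and -0.39 under mitochondrial scaling. The call was lost without replicate 2 of that combination (adjusted p = 0.0692). The nilotinib combination overlapped DMSO, with a log2 FC of 0.04 (95% CI -0.15 to 0.24) that likewise turned negative under those scalings (-0.26 and -0.57). DUSP7 overlapped DMSO in both combinations and under TMM scaling was called lower only with 1 µM THZ531, at 35.2, 22.4 and 31.4 CPM against 40.2, 52.4 and 43.5 CPM, a fall of 0.61 ± 0.17 (adjusted p = 0.00375). On the mitochondrial scale DUSP7 was also called lower with lapatinib + THZ531 and nilotinib + THZ531, at -0.69 and -0.66 (adjusted p = 0.000371 and 0.00061).

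Counted over the group, 1 µM THZ531 lowered 9 of the 10 genes and raised none, where 36.8% of all tested genes were lower and 33.1% higher. DESeq2 and an unadjusted p under 0.05 likewise gave 0 of the 10 higher. The median log2 FC of the 10 genes was -0.77, against -0.01 for all tested genes. Under upper-quartile scaling the 1 µM calls of DUSP5 (-0.25, edgeR adjusted p = 0.0723) and SPRY2 (-0.11, 0.291) were lost. The SPRY2 call was also lost in a fit of only the groups compared (0.0831). In lapatinib + THZ531, 5 genes were lower (DUSP4, SPRY4, SPRED1, ETV4 and ETV5) and 1 higher (DUSP6), against backgrounds of 37.8% and 34.3%, with a median of -0.29. Nilotinib + THZ531 gave 5 lower (the same 5 genes) and 1 higher (DUSP5), against 37.3% and 33.7%, with a median of -0.12. The number lower in the combinations was therefore close to the share of all genes that were lower. DESeq2 called 3 lower for nilotinib + THZ531, as did edgeR without DMSO replicate 3 and without replicate 1 of the combination. These 3 comparisons share their DMSO libraries and are not independent of each other.

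The scale on which a fall is read mattered for these groups. TMM takes most genes to be unchanged, whereas scaling to the 13 mitochondrial mRNAs takes their summed level to be unchanged. The latter moved the median log2 FC of all genes by -0.68, -0.62 and -0.54 for lapatinib + THZ531, nilotinib + THZ531 and 1 µM THZ531. It also moved the median by -0.14 with lapatinib alone and by -0.18 with nilotinib alone. The mitochondrial share differed between replicates, from 1.36% to 1.78% of counts with 1 µM THZ531. For the 3 groups, scaling to library size moved the median by -0.33, -0.30 and -0.26, and upper-quartile scaling by 0.16, 0.14 and 0.20. On the mitochondrial scale 10, 9 and 10 of the genes were lower in the 3 groups. Among all genes, TMM called 6064 lower and 5500 higher for lapatinib + THZ531, and mitochondrial scaling 9366 and 850. The corresponding counts were 8959 and 774 for nilotinib + THZ531 and 8424 and 697 for 1 µM THZ531, against 5974 and 5407 and 5902 and 5301 under TMM. Since every library was read to a like depth, less RNA per cell and fewer cells cannot be told apart, and all levels here are relative.

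The single treatments changed few of the 10 genes. With 0.1 µM THZ531 none was called in either direction by edgeR, against 4.31% of all genes lower and 1.78% higher. Among them 2 rises had an unadjusted p under 0.05, DUSP6 (39.2 to 42.7 CPM; log2 FC 0.30 ± 0.091, adjusted p = 0.0592) and SPRY2 (19.98 to 21.6 CPM; 0.32 ± 0.099, adjusted p = 0.0648), and DESeq2 called both (adjusted p = 0.0171 and 0.0212). Both were also called by edgeR without replicate 1 or 2 of 1 µM THZ531 (0.0371 and 0.0281 for DUSP6, 0.0278 and 0.0203 for SPRY2), and DUSP6 without replicate 2 of lapatinib + THZ531 (0.0423). For DUSP4, DUSP5, DUSP6 and SPRY2 all 3 libraries of 0.1 µM THZ531 lay above all DMSO libraries. For ETV5 all 3 lay below them, and the other 5 genes overlapped DMSO. The share of all tested genes set apart from DMSO in this way was not computed. Lapatinib alone called none by edgeR or DESeq2, against 0.0561% lower and 0.256% higher, with 3 rises at an unadjusted p under 0.05: DUSP5 (log2 FC 0.37), DUSP6 (0.19) and ETV5 (0.15). ETV5 was at 132 to 135 CPM with lapatinib, above the highest DMSO library. Nilotinib alone called 0 lower, with 0 at an unadjusted p under 0.05 and 0 by DESeq2, and 1 higher, against 0.0998% and 0.243%.

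That rise was ETV4 with nilotinib, a log2 FC of 0.35 ± 0.074 (adjusted p = 0.0404), which no longer passed without any 1 of the DMSO or nilotinib libraries (adjusted p from 0.0795 to 0.204). It was also above the threshold without some libraries of other groups (0.0521 to 0.0661). Between the kinase inhibitors themselves, ETV4 was lower with lapatinib, at 12.5, 13.5 and 13.1 CPM, than with nilotinib, a log2 FC of -0.47 ± 0.074 (adjusted p = 0.00297). It was the only gene of the 10 to differ between them, where 0.549% of all genes were lower and 0.355% higher with lapatinib, and DESeq2 and an unadjusted p under 0.05 also gave 1 lower and 0 higher. For DUSP4, SPRY4, SPRED1 and SPRED2 the intervals of this difference all included 0, the widest being -0.43 to 0.27 for SPRED2.

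**Figure D1:**
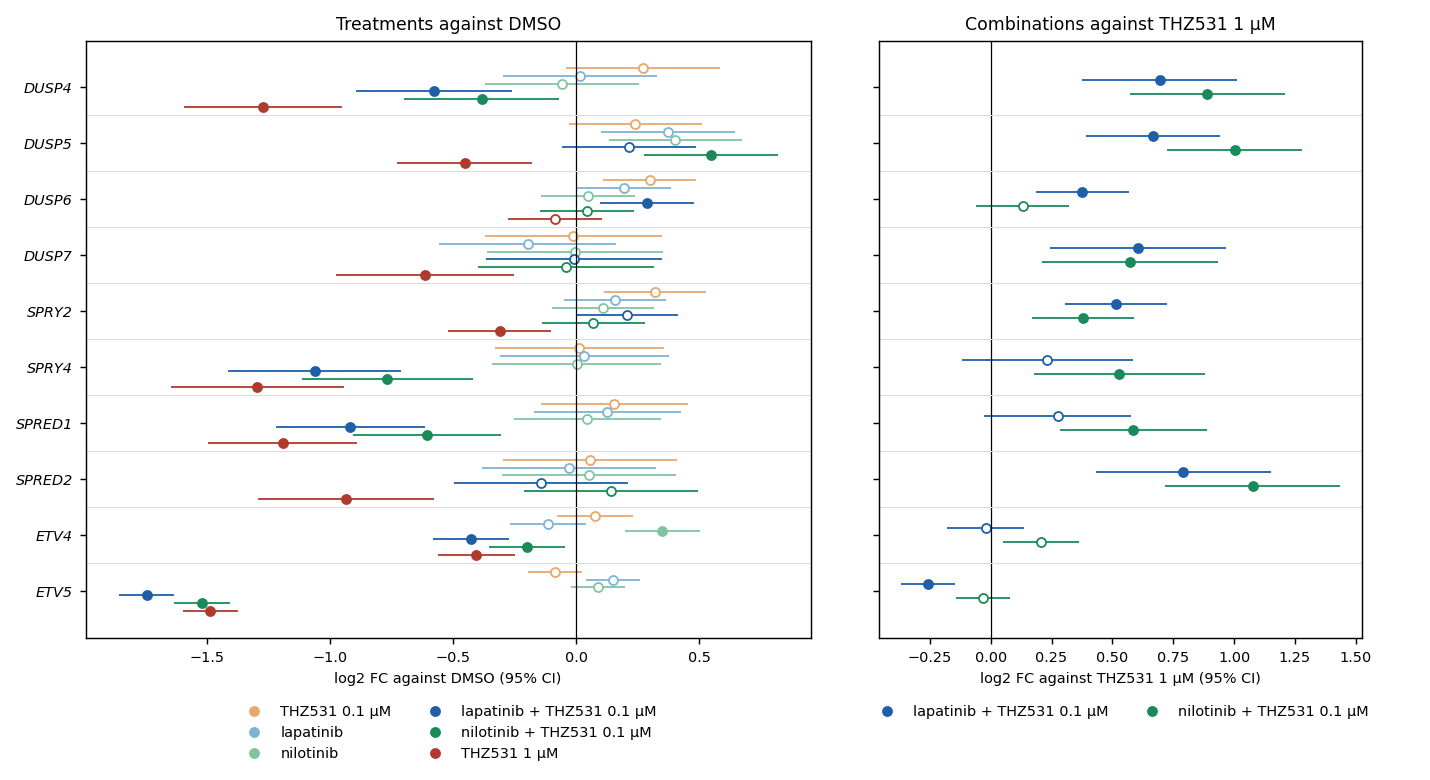
Log2 FC of each gene with its 95% confidence interval, on the left for the 6 treatments against DMSO and on the right for the combinations against 1 µM THZ531; filled points passed an adjusted p of 0.05 and open points did not. DUSP4, SPRY4, SPRED1, ETV4 and ETV5 lie left of 0 in all 3 strong treatments, while the right panel places SPRED2 and DUSP5 of nilotinib + THZ531 at 1.08 and 1.00.

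The combinations and 1 µM THZ531 were then compared directly. With lapatinib + THZ531, 6 of the 10 genes were higher than with 1 µM THZ531 and 1 was lower, against 12.8% and 16.1% of all genes. The higher ones were SPRED2 (log2 FC 0.79 ± 0.17, adjusted p = 0.00145), DUSP4 (0.69 ± 0.15, 0.00163), DUSP5 (0.67 ± 0.13, 0.000649), DUSP7 (0.60 ± 0.17, 0.0118), SPRY2 (0.52 ± 0.10, 0.000567) and DUSP6 (0.38 ± 0.091, 0.00372). DUSP7 was lost without replicate 2 of the combination or 1 µM replicate 2 (adjusted p = 0.0844 and 0.0789). The lower gene was ETV5, with a log2 FC of -0.26 ± 0.053 (adjusted p = 0.000917), so that this factor moved against those 6. The highest ETV5 library of lapatinib + THZ531 held 36.4 CPM and the lowest of 1 µM THZ531 40.6 CPM. In a fit of only the groups compared, ETV5 was not called (-0.24, adjusted p = 0.106), nor were DUSP4, DUSP6 and DUSP7 (0.0592, 0.0635 and 0.0711).

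With nilotinib + THZ531, 7 genes were higher than with 1 µM THZ531 and none lower, against 11.2% and 13.0% of all genes. By DESeq2 and at an unadjusted p under 0.05 the counts were 8 higher and 0 lower. SPRED2 (log2 FC 1.08 ± 0.17, adjusted p = 0.000107) and DUSP5 (1.00 ± 0.13, 1.41e-05) differed most, followed by DUSP4 (0.89 ± 0.15), SPRED1 (0.58 ± 0.14), DUSP7 (0.57 ± 0.17), SPRY4 (0.53 ± 0.17) and SPRY2 (0.38 ± 0.10). SPRY4 (adjusted p = 0.0257) was lost without replicate 2 or 3 of the combination and without 1 µM replicate 2 or 3 (0.135, 0.0731, 0.149 and 0.0612), and DUSP7 (0.0192) without those same libraries save the last (0.0634, 0.100 and 0.121). SPRY2 was lost without 1 µM replicate 2 (0.0554). ETV4, at 0.21 ± 0.075 (adjusted p = 0.0514), and DUSP6, at 0.13 (95% CI -0.06 to 0.32), did not pass, and ETV5 was at -0.03 (95% CI -0.15 to 0.08). ETV4 passed without 1 µM replicate 2 (adjusted p = 0.0412). Both comparisons share the 1 µM THZ531 libraries.

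Between the doses of THZ531 alone, all 10 genes were lower at 1 µM than at 0.1 µM, where 35.9% of all genes were lower and 34.3% higher, and 0 of the 10 were higher by edgeR, by DESeq2 or at an unadjusted p under 0.05. DUSP4 differed most, with a log2 FC of -1.54 ± 0.15 (adjusted p = 3.05e-08), going from 77.3 to 87.3 CPM at the low dose to 18.3 to 32.8 CPM at the high dose. DUSP6 differed least, at -0.39 ± 0.091 (adjusted p = 0.000899), and was not called under upper-quartile scaling (0.116). SPRY2 fell by 0.63 ± 0.10 over this step and ETV5 by 1.40 ± 0.054. For DUSP4, DUSP5, DUSP6 and SPRY2 the 0.1 µM libraries lay above DMSO and, in DUSP4 and DUSP5, the 1 µM libraries below it. The ETV5 libraries lay below DMSO at both doses. At 0.1 µM edgeR called none of these genes against DMSO, and the share of all tested genes set apart in this way was not computed.

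The combinations differed little from each other. Only ETV5 was called, lower with lapatinib + THZ531 by a log2 FC of -0.23 ± 0.053 (adjusted p = 0.0377), against 0.736% of all genes lower and 0.730% higher. At an unadjusted p under 0.05, 4 of the 10 were lower and 1 higher, and DESeq2 called 1 and 0. The libraries of the 2 groups did not overlap for this gene, yet the call was lost without any 1 of the 6 libraries compared (adjusted p from 0.0642 to 0.147). Differences for DUSP6 (0.24, 95% CI 0.05 to 0.43), DUSP5 (-0.33, 95% CI -0.60 to -0.06) and ETV4 (-0.23, 95% CI -0.38 to -0.07) did not pass the adjustment over all genes (adjusted p = 0.231, 0.251 and 0.159).

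Whether a combination differed from the sum of its parts was tested by an interaction term, the log2 FC of the combination less those of the kinase inhibitor and of 0.1 µM THZ531. For lapatinib it was negative for 5 of the 10 genes and positive for none, against 32.0% and 28.2% of all genes. ETV5 (-1.81 ± 0.075, adjusted p = 3.17e-13), SPRED1 (-1.20 ± 0.20) and SPRY4 (-1.11 ± 0.23) carried the largest terms. For nilotinib 6 of the 10 were negative and none positive, against 31.2% and 25.6%. In both, 0 of the 10 were positive at an unadjusted p under 0.05 or by DESeq2. Again ETV5 (-1.53 ± 0.075, adjusted p = 3.34e-12) led, with SPRED1 at -0.81 ± 0.20 and SPRY4 at -0.78 ± 0.23. DUSP7 and SPRED2 had terms near 0 in both, at 0.20 (95% CI -0.31 to 0.71) and -0.17 (95% CI -0.67 to 0.33) with lapatinib and -0.03 (95% CI -0.53 to 0.48) and 0.03 (95% CI -0.47 to 0.53) with nilotinib. The terms share the DMSO and 0.1 µM THZ531 libraries.

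The closest relatives of the 10 genes changed in both directions under TMM scaling. Of 10 such genes (DUSP1, DUSP2, DUSP8, DUSP9, DUSP10, DUSP16, SPRY1, SPRY3, SPRED3 and ETV1), 4 were lower and 4 higher in each combination, and 4 lower and 3 higher with 1 µM THZ531, beside the shares of all genes given above (37.8% and 34.3%, 37.3% and 33.7%, and 36.8% and 33.1%). On the mitochondrial scale the counts were 4 lower and 1 higher with lapatinib + THZ531 and 6 and 1 in the other two groups. DUSP16, a phosphatase directed at the stress kinases JNK and p38, went from 17.2 ± 0.21 CPM in DMSO to 1.86 ± 0.11 CPM in lapatinib + THZ531 (SD, n = 3), a log2 FC of -3.21 ± 0.095 (adjusted p = 6.08e-16). SPRED3 fell by 2.23 ± 0.17 from 4.56 CPM, and DUSP1, an immediate early phosphatase, rose by 0.93 ± 0.078 from 15.2 CPM. The log2 FC of SPRY3 was 3.75 ± 0.46 (adjusted p = 3.86e-07), from counts of 5, 4 and 8 in DMSO to 50, 64 and 64 in lapatinib + THZ531.

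Other transcripts driven by ERK moved both ways. Of 12, lapatinib + THZ531 gave 6 lower and 5 higher, nilotinib + THZ531 7 and 5, and 1 µM THZ531 5 and 5, beside the same shares of all genes. LIF, a cytokine, fell by 2.38 ± 0.16 with lapatinib + THZ531 and FOSL1, an AP-1 subunit, by 1.81 ± 0.16, whereas the immediate early gene FOS rose by 3.26 ± 0.22 and HBEGF, an EGFR ligand, by 2.21 ± 0.097 (adjusted p = 8.29e-11, 4.59e-09, 5.58e-11 and 1.01e-13). Of the 22 genes of the cascade from EGFR to the RSK kinases, 8 were lower and 9 higher with lapatinib + THZ531, 8 and 10 with nilotinib + THZ531, and 10 and 8 with 1 µM THZ531, again beside those shares. EGFR itself fell by 1.97 ± 0.099 and the RAS GTPase-activating gene RASA1 by 0.87 ± 0.064. The adaptor GRB2 and the ERK gene MAPK3 had log2 FC of 0.78 ± 0.050 and 0.66 ± 0.068 under TMM scaling. On the mitochondrial scale 13 of the 22 were lower in that combination and none higher, where 9366 of all 16036 genes were lower.

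The transcription factors through which ERK acts on such targets were called in 1 direction only. Of 8 (CIC and its partners ATXN1 and ATXN1L, the repressor ERF, and ELK1, ELK3, ETS1 and ETS2), 8 were lower with lapatinib + THZ531 and 7 were lower with each of nilotinib + THZ531 and 1 µM THZ531, and none was higher (0 also by DESeq2 and at an unadjusted p under 0.05). The medians of their log2 FC were -1.02, -1.12 and -0.99. ATXN1 fell by 1.65 ± 0.11 and ERF by 1.37 ± 0.062 with lapatinib + THZ531 (adjusted p = 3.7e-11 and 1.46e-13). These counts stand beside the shares of all genes given above for the same comparisons.

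Across all 21 libraries the genes whose log2 CPM followed a given gene most closely were sought among 10912 others whose log2 CPM averaged 1 or more. For ETV5 they were TTPAL, E2F7 and SH3BP5L (Pearson r = 0.998, 0.996 and 0.996), and for SPRY4 they were YEATS2, ZDHHC7 and RRP1B (0.986, 0.981 and 0.980). SPRED2 went most closely with CDC42EP4, ZBED4 and LEO1 (0.977, 0.975 and 0.973). DUSP6 had no comparably close neighbour, the nearest being SPRY2 at 0.838, followed by CGRRF1 (0.795) and SLC71A1 (0.794). These values describe 21 libraries that fall into 7 groups and share depth and scaling.

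Replicates of a group also differed in a shared way that touched several of the 10 genes. After group means were removed, the leading axis held 50.5% of the variance over 10913 genes, and its gene loadings ran with transcript length at Spearman's rho = -0.414 over 10777 genes. The libraries scoring highest on it were replicate 1 of lapatinib + THZ531 (0.174), replicate 1 of nilotinib + THZ531 (0.170) and replicate 2 of 1 µM THZ531 (0.164). DUSP7 followed the axis almost fully, with a correlation of -0.98 between its deviations and the axis score over the 21 libraries, then SPRY4 (-0.91), SPRED2 (-0.89), DUSP4 (-0.70) and SPRED1 (-0.63). ETV4 (-0.05) and DUSP6 (-0.27) followed it least. The deviations of the 45 pairs of genes had a median correlation of 0.56, and 37 pairs were positive. Without ETV4 all 36 pairs were positive, from 0.20 to 0.92 with a median of 0.61, against 1 of the 9 pairs with ETV4. The share of positive pairs among other genes was not computed.

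Leaving those 3 libraries out, a comparison chosen after the data had been seen, gave 8 genes lower with 1 µM THZ531, 5 lower and 3 higher with lapatinib + THZ531, and 5 lower and 2 higher with nilotinib + THZ531. The genes called higher were DUSP5, DUSP6 and SPRY2 in the former combination (log2 FC 0.33, 0.32 and 0.23) and DUSP5 and SPRED2 in the latter (0.61 and 0.27). DUSP4 then fell by 1.04 instead of 1.27 with 1 µM THZ531, SPRED2 by 0.70 instead of 0.93, and ETV5 by 1.45 instead of 1.49. Against 1 µM THZ531, lapatinib + THZ531 had 6 genes higher and 1 lower without them, and nilotinib + THZ531 had 8 higher and 0 lower. The part of the axis in the results was otherwise not tested.

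**Figure D2:**
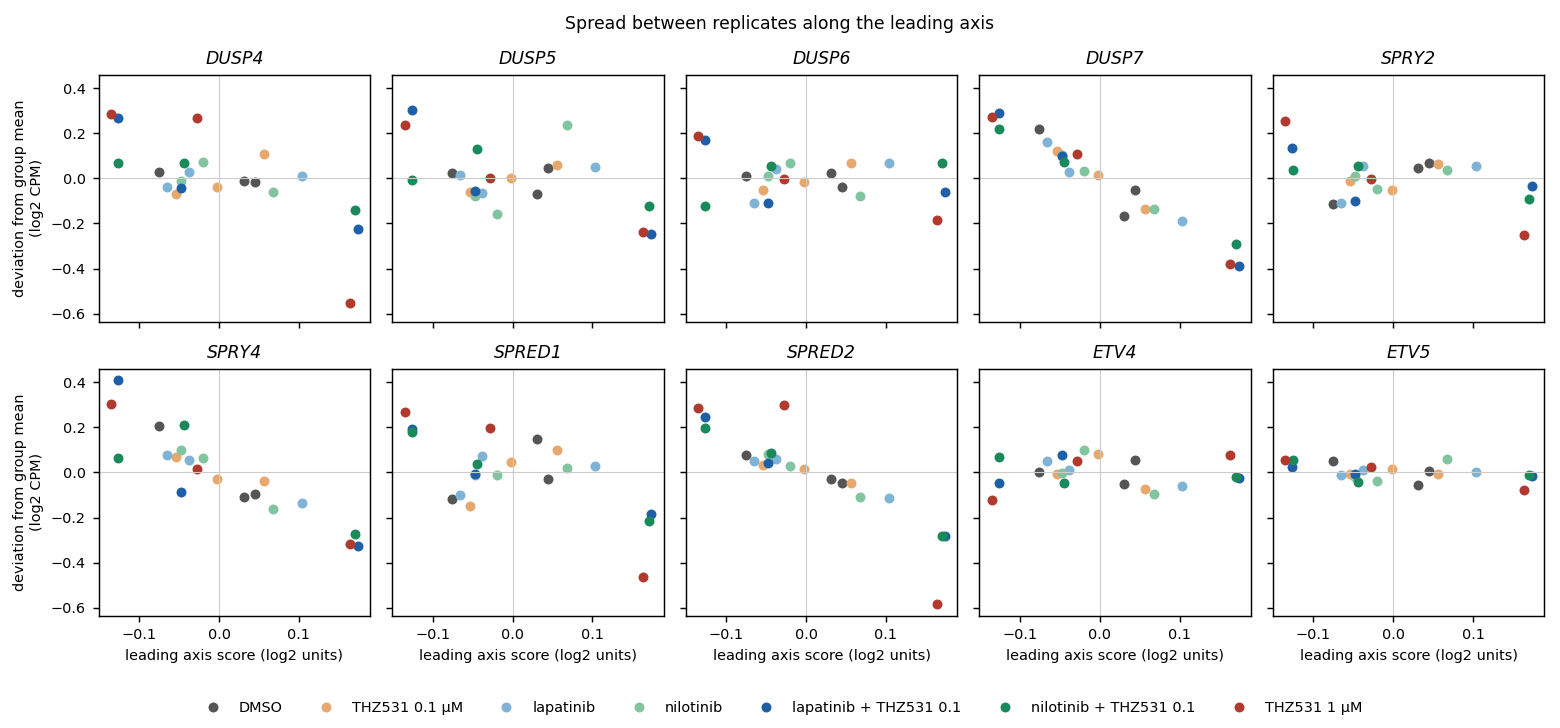
Deviation of each library from its group mean (log2 CPM, vertical axis) against its score on the leading axis of replicate spread (horizontal axis, log2 units), with 1 point per library coloured by group. DUSP7 lies close to a falling line (r = -0.98) and ETV4 shows no slope (r = -0.05), with the 3 highest-scoring libraries at 0.164 to 0.174.

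Gene span was set beside the falls as well. Genes under 20 kb had a median log2 FC of 0.20 with 1 µM THZ531, those of 20 to 100 kb -0.13 and those over 100 kb -0.15, with 31.3%, 41.3% and 40.3% called lower. All 7 genes of the group under 20 kb lay below the median of their class, with log2 FC of -0.31 for SPRY2, -0.09 for DUSP6, -0.61 for DUSP7, -0.45 for DUSP5, -1.30 for SPRY4, -1.27 for DUSP4 and -0.41 for ETV4. ETV5, SPRED1 and SPRED2, the longest, were at -1.49, -1.19 and -0.93, likewise below the medians of their classes. In lapatinib + THZ531, DUSP6 (0.29 against 0.24) and SPRED2 (-0.143 against -0.150) lay above their class medians. In nilotinib + THZ531, DUSP5 (0.55 against 0.19) and SPRED2 (0.14 against -0.10) did, and the remaining genes lay below in each combination. No test of span was made over so few genes.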

How the data were processed

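RNA was sequenced from 21 libraries of Hs578T cells, 7 groups of 3 replicates, which the study describes as independent experiments. The authors prepared unstranded polyA-selected paired-end libraries, aligned filtered reads to GRCh38 with HISAT2 (2.1.0 in the submitters' processing notes), counted them per Entrez gene with featureCounts (version not given in the sources used here) and tested with DESeq2. The deposited values are raw counts in 1 table of 28395 genes, of which 27745 had a symbol and took 99.98% of the counts; no column was left out. Between 61.6% and 66.4% of the counts from 1 to 20 were even, so counts may tally read ends and not pairs, which was tried by halving them.

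Groups were taken from the labels. edgeR 4.0.16 (R 4.3.3) was run with TMM scaling, filterByExpr and quasi-likelihood tests in 1 fit of the 7 groups without covariates, with Benjamini-Hochberg adjustment over 16036 genes and a threshold of 0.05. log2 CPM used a prior count of 2. Alternatives were DESeq2 1.42.0, other scalings (RLE, library size, upper quartile, 13 mitochondrial mRNAs), other filters, a fit of only the groups compared, a replicate block and leaving out each of the 21 libraries. At 97612207 to 112229052 counts a library, replicate spread exceeded counting error.

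The 10 genes and the lists of related genes were chosen with earlier results of these data known. Named were all 10 genes, from each of 4 lists of related genes the 2 largest falls and 2 largest rises called with lapatinib + THZ531, and for DUSP6, SPRY4, SPRED2 and ETV5 the 3 genes of highest Pearson r. Promoters came from RefSeq, and no protein sequence was used here. Replicate numbers were not taken as pairs, since the correlation of same-numbered libraries did not exceed 0.1 in every pair and the labels tie no number to a shared experiment. That rule cannot show that pairing is absent, and the replicate block was the only fit that allowed for it.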

Additional observations from a re-analysis of the deposited data

Results flagged for a closer look

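For 5 genes the effect of 0.1 µM THZ531 with lapatinib present differed from its effect without it, by the interaction term on the log2 scale. The term was -0.87 for DUSP4, -1.11 for SPRY4, -1.20 for SPRED1, -0.39 for ETV4 and -1.81 for ETV5 (edgeR adjusted p = 0.00165, 0.000422, 4.24e-05, 0.00341 and 3.17e-13). All 3 libraries of lapatinib + THZ531 lay below all DMSO libraries for each of these genes. The ETV4 term was -0.20 under upper-quartile scaling (adjusted p = 0.127). DUSP5 was called as well without replicate 2 of lapatinib + THZ531 (-0.57, adjusted p = 0.0074), and DUSP5 and SPRY2 without 1 µM replicate 2 (adjusted p = 0.0465 and 0.0491).

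With nilotinib in place of lapatinib the term was -0.60 for DUSP4, -0.36 for SPRY2, -0.78 for SPRY4, -0.81 for SPRED1, -0.63 for ETV4 and -1.53 for ETV5 (edgeR adjusted p = 0.0223, 0.0363, 0.00763, 0.00213, 3.86e-05 and 3.34e-12). DUSP4 was lost without replicate 1 of 0.1 µM THZ531 or of nilotinib + THZ531 (adjusted p = 0.0538 and 0.0551). Under upper-quartile scaling the DUSP4 term was -0.43 and the SPRY2 term -0.19, and neither was called (adjusted p = 0.0663 and 0.215). RLE scaling did not call the SPRY2 term either (0.0527). SPRY2 was lost without DMSO replicate 2 (0.0939), 0.1 µM THZ531 replicate 1 or 3 (0.0799 and 0.0540), nilotinib replicate 1 or 3 (0.0702 and 0.0634) or replicate 1 of the combination (0.0854). DUSP6, at -0.30 (adjusted p = 0.0528), passed without replicate 2 of lapatinib + THZ531 (0.0391), replicate 1 of nilotinib + THZ531 (0.0483) and replicate 1 or 2 of 1 µM THZ531 (0.0345 and 0.0311). No group had the 4 samples that an outlier test needs.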

How the results depend on the processing

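Counts of the 10 genes lower with lapatinib + THZ531 (5), with 1 µM THZ531 (9) and at 1 µM against 0.1 µM THZ531 (10) stayed within 1.5 times under every alternative but mitochondrial scaling (10 for lapatinib + THZ531). Replicate numbers were not taken as pairs, since 35 of 63 same-numbered pairs of libraries, not all, correlated over 0.1. Their correlation averaged 0.115 (from -0.718 to 0.806), against -0.054 for libraries of different numbers, and 8 of 21 libraries correlated best with their own number. On the leading axis replicate 1 scored above 0 and replicate 2 below 0 in 6 of the 7 groups, and the reverse held in 1 µM THZ531. Whether a number marks a shared experiment was not tested. With the replicate block the counts were 5 lower and 1 higher for each combination and 9 lower with 1 µM THZ531, 7 negative nilotinib terms and 8 genes higher with nilotinib + THZ531 than with 1 µM THZ531. Genes higher with 0.1 µM THZ531 numbered 2 (DESeq2), 4 (only the groups compared) and 3 (without the 3 libraries farthest on the leading axis), and higher with lapatinib 1 (only the groups compared). The rise with nilotinib went to 0 under library size, upper-quartile and mitochondrial scaling, no filter and only the groups compared. Genes higher with lapatinib + THZ531 numbered 2 (RLE, at least 10 counts, DESeq2, halved counts), 3 (upper quartile, without the 3 libraries) and 0 (library size, mitochondrial), with DUSP5 at -0.47 and SPRY2 at -0.48 (mitochondrial) and DUSP6 at -0.038 (library size) and -0.39 (mitochondrial). For nilotinib + THZ531, 3 were lower under RLE, upper quartile and DESeq2 and 9 under mitochondrial scaling, and 0 were higher under library size and mitochondrial scaling and 2 under upper quartile and without the 3 libraries, with DUSP5 at -0.074, SPRY2 at -0.56 and SPRED2 at -0.49 (mitochondrial) and DUSP6 at -0.26 (library size) and -0.57 (mitochondrial). Negative lapatinib terms numbered 8 (library size) and 9 (mitochondrial). Fitting only the groups compared gave 3 higher and 0 lower for lapatinib + THZ531 against 1 µM THZ531 and 3 higher for nilotinib + THZ531. ETV5 between the combinations went to 0 under RLE, upper quartile, mitochondrial scaling, no filter, only the groups compared and without the 3 libraries, and ETV4 between the kinase inhibitors to 0 under mitochondrial scaling. Leaving out 1 library gave 8 to 9 lower with 1 µM THZ531, 3 to 5 lower with nilotinib + THZ531, 0 to 2 higher with lapatinib + THZ531 and with 0.1 µM THZ531, 0 to 1 higher with nilotinib, 0 to 1 lower between the combinations, 5 to 7 and 4 to 7 negative terms for lapatinib and nilotinib, and 5 to 6 and 5 to 7 higher than with 1 µM THZ531. The cause of these changes was not tested. Only 3 replicates a group limit what small changes, such as those of DUSP6, ETV4 and SPRY2, can show.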
